A study of Mus musculus with 12 samples.

Results

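The translation initiation factors are the proteins that bring a ribosome to the start codon of an mRNA. Members were all protein-coding genes whose symbols begin with Eif1, Eif2, Eif3, Eif4, Eif5 or Eif6, without the eIF2 kinases (Eif2ak genes) and the eIF4E-binding proteins (Eif4ebp genes). The rule gave 48 of 45321 genes in the deposited tables, and the 8 non-coding genes with such names were left out. Of the 48, 46 passed the filter on low counts. Eif2s3y, the Y-linked copy of the eIF2 gamma subunit, and Eif4e1b, an eIF4E relative known from oocytes, did not pass: they had 0 to 2 and 0 to 5 counts in a library.

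RNA came from total CD4+ T cells of C57BL/6 mouse spleens, isolated untouched, that is by removing the other cells. The cells received ethanol (the vehicle) or 1 µM cyclosporin A (CsA) for 1 h and were then left unstimulated (US) or given 10 nM PMA with 1 µM ionomycin (PI) for 2 h. The pair acts downstream of the T cell receptor: PMA turns on protein kinase C, and ionomycin lets calcium in. CsA with its cyclophilin partner inhibits calcineurin, the phosphatase that moves NFAT transcription factors into the nucleus. The 4 groups, vehicle unstimulated (ethanol_US), CsA unstimulated (CsA_US), vehicle stimulated (ethanol_PI) and CsA stimulated (CsA_PI), had 3 SMART-seq libraries each. The labels give no age or sex of the mice and do not say that replicates were separate animals, so a p-value covers only the variation from library to library and some of it may be technical.

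In cap-dependent initiation, eIF4E binds the mRNA cap, eIF4G is the scaffold and eIF4A is the RNA helicase, together called eIF4F. The small ribosomal subunit carries eIF1, eIF1A, eIF3 and eIF5 and the initiator tRNA, which eIF2 delivers as a complex with GTP. eIF2B recharges eIF2 with GTP, and eIF5B joins the large subunit. Resting T cells are small and make little protein, and activated T cells raise protein synthesis before they divide.

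Libraries held 10523816 to 18468044 estimated counts, and 3 counts, the limit that a count of 0 allows, stood for 0.162 to 0.285 CPM (counts scaled to library size). The CPM of genes below are scaled with edgeR's TMM factors too. T cell markers (Cd3d, Cd3e, Cd3g, Cd4, Cd5 and Lck) were present in every library, with a summed level of 2182 to 4103 CPM. In the ethanol_PI libraries, Cd3d, Cd3g and Cd4 were below all unstimulated libraries and Cd5 and Lck above them. The library labelled CsA_PI 2 stood apart from its group in genes known to respond to stimulation: Il2 was at 25.4, 2.59 and 23.3 CPM in CsA_PI replicates 1, 2 and 3, and Egr1 at 1063, 62.2 and 1202 CPM. It was kept under its label, and counts of calls that use it are given with all 12 and with the other 11 libraries. Values of single genes are from all 12 libraries unless stated. The summed level of 3 B cell markers (Cd79a, Cd79b and Ms4a1) was 654, 671, 185 and 665 CPM in replicate 2 of ethanol_US, CsA_US, ethanol_PI and CsA_PI, against 43 to 112 CPM in the other 8 libraries, and none of these markers was at 0. The 5 myeloid markers summed to 156 to 179 CPM in replicate 2 of the groups and to 24.7 to 43.7 CPM elsewhere. Markers of CD8+ T and NK cells and of red cells and platelets summed to 22.8 to 42.5 and 17.4 to 97.9 CPM, with no marker at 0 in a whole group. The B cell and myeloid markers moved with the replicate number in all 4 groups, and their part in the results was not tested.

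Stimulation in vehicle was accompanied by a rise of most initiation factor mRNAs. The members took 1.06%, 0.974% and 1.13% of all TPM (abundance scaled for transcript length and library depth) in the ethanol_US libraries and 2.11%, 2.05% and 2.19% in the ethanol_PI libraries. The groups did not overlap. The CsA_US libraries had 1.06%, 1.01% and 1.11%, all within the range of ethanol_US. The CsA_PI libraries had 1.29%, 0.992% and 1.42%, where the value of replicate 2 lay among the unstimulated libraries. Eif1, Eif4a1 and Eif5a together made up 35.1% to 42.2% of the members' TPM in ethanol_US and 51.2% to 53.5% in ethanol_PI. The other 45 members summed to 6148, 6324 and 6932 TPM in ethanol_US and to 9794, 10000 and 10430 TPM in ethanol_PI. These sums and shares include transcripts not annotated as protein coding. On average such transcripts held 62.8% of the TPM of Eif1, 64.2% of that of Eif4a1 and 0% of that of Eif5a.

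By edgeR's quasi-likelihood test, with Benjamini-Hochberg adjustment over 14398 genes and calls at an adjusted p under 0.05, 35 of the 46 tested members rose on stimulation in vehicle and 2 fell. Over all genes, 20.1% were called higher and 19.7% lower. The median log2 fold change was 1.02 over the members and -0.03 over all genes tested. Without CsA_PI 2 the same 37 members were called, where 22.2% of all genes were called higher and 21.9% lower. In bulk RNA, fewer cells of a type and less RNA per cell cannot be told apart. Scaling matters here: with library totals in place of TMM the median of all genes moved to -0.63, 22 of the 35 members remained called higher, 13 were no longer called, and 9 members in all were called lower. Over all genes, 11% were then called higher and 37.8% lower. The 13 were Eif1, Eif2a, Eif2b5, Eif2s3x, Eif3e, Eif3h, Eif3k, Eif3m, Eif4a3, Eif4b, Eif4e2, Eif4h and Eif5, of which Eif2a, Eif3k and Eif4e2 also changed sign.

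**Figure D1:**
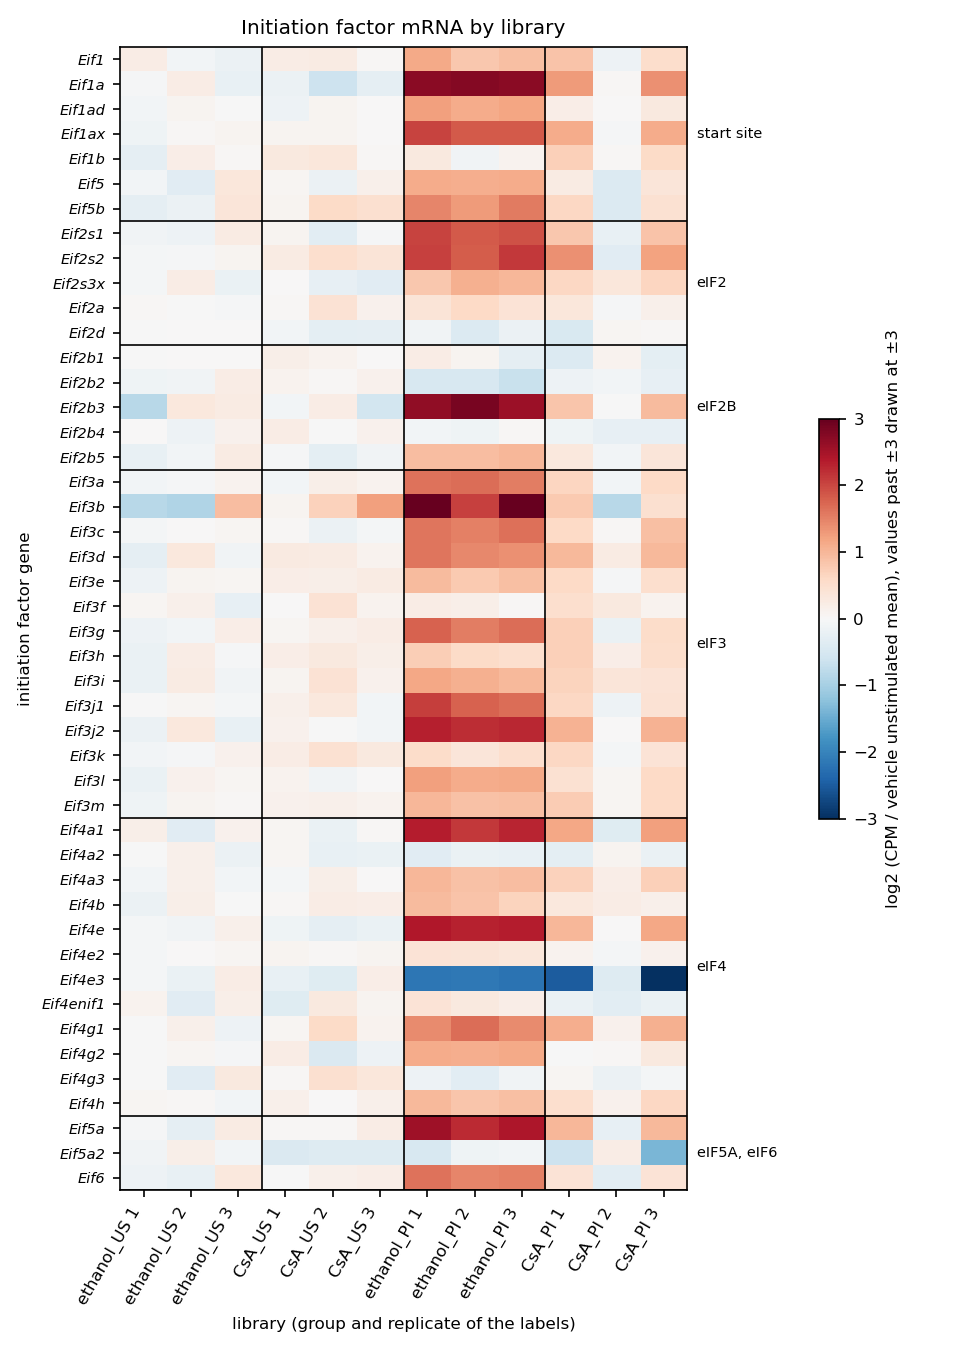
Heat map of the 46 tested initiation factor genes (rows, by role) in the 12 libraries (columns), as log2 of CPM over the vehicle unstimulated mean. The ethanol_PI columns are red for the 35 members that rose, CsA_PI 1 and 3 are paler, and CsA_PI 2 resembles the unstimulated columns.

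In cells stimulated under CsA, 24 members were lower than in cells stimulated with vehicle and 0 were higher, where 12.7% of all genes were called lower and 10.3% higher. At an unadjusted p under 0.05, 32 were lower and 1 was higher, where 17.2% of all genes were in each direction. DESeq2 called 29 lower and 1 higher, with 14.3% and 12.7% of all genes. Without CsA_PI 2, 23 of the 24 remained lower, with 12.9% of all genes called lower. The members' median log2 difference was -0.64 with 12 and -0.60 with 11 libraries, and that of all genes 0.06 and 0.01. This comparison shares the ethanol_PI libraries with the one above, so a high ethanol_PI value enters both.

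How much of the rise occurred under CsA depended on CsA_PI 2. Of the 35 members that rose in vehicle, 32 were at or below the highest unstimulated library in CsA_PI 2, against 4 in CsA_PI 1 and 6 in CsA_PI 3. These were 91.4%, 11.4% and 17.1% of the 35, and over all 2892 genes that rose in vehicle the shares were 81.7%, 32% and 29.7%. With 12 libraries, only Eif1a, Eif2s3x and Eif4e were called higher on stimulation with CsA and 0 members lower, where 3.9% of all genes were called higher and 1.38% lower. At an unadjusted p under 0.05, 13 members were higher and 2 lower, with 14.7% and 11% of all genes. DESeq2 called 7 higher and 1 lower, with 10.6% and 6.25% of the genes it gave an adjusted p. With the other 11 libraries, 21 members were called higher and 1 lower, where 14.9% and 14.2% of all genes were. The median log2 change of the members under CsA was 0.26 with 12 and 0.40 with 11 libraries.

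The difference between the responses (stimulation under CsA minus stimulation in vehicle, the interaction) was called negative for 15 members and positive for 0, where 6.19% of all genes were called negative and 3.54% positive. At an unadjusted p under 0.05, 29 were negative and 0 positive, with 12.8% and 11.2% of all genes. DESeq2 called 24 negative and 0 positive, with 9.89% and 6.49% of the genes it gave an adjusted p. Without CsA_PI 2, 19 were negative, 14 of them among the 15, with 7.88% of all genes negative. Leaving out other single libraries moved this count to as few as 6, without ethanol_US 1. In unstimulated cells no member was called for CsA: edgeR called 0 higher and 0 lower, where 0% and 0.00695% of all genes were, 0 passed at an unadjusted p under 0.05, and DESeq2 called 0. Without CsA_PI 2, 0 were called by edgeR, and at an unadjusted p under 0.05 Eif2s2 and Eif3k were higher and Eif1a was lower, with 2.81% and 3.14% of all genes. With 12 libraries the members' log2 differences there ranged from -0.40 for Eif5a2 to 0.74 for Eif3b, whose standard error (SE) was 0.59.

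**Figure D2:**
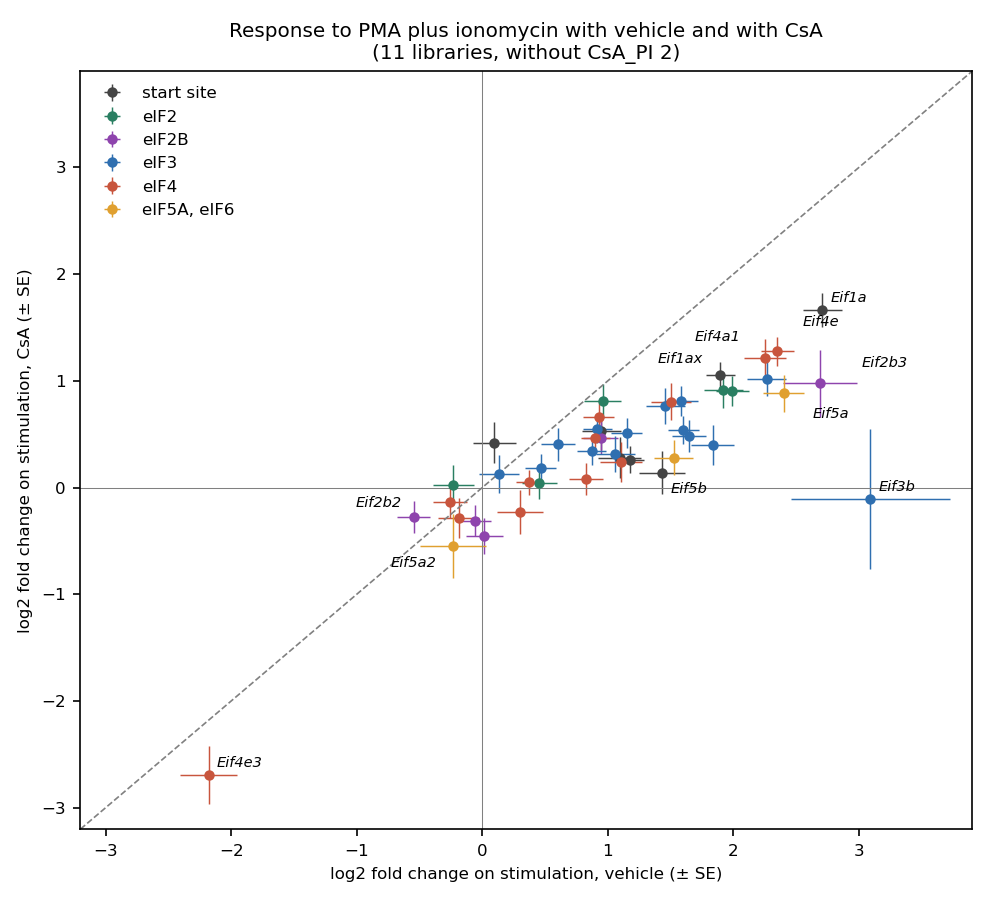
Log2 fold change on stimulation with vehicle (horizontal) and with CsA (vertical) for the 46 tested members, with bars of ± SE, from the 11 libraries without CsA_PI 2; the dashed line marks equal responses. The members that rose in vehicle lie below the line, Eif3b is the farthest below it, and Eif4e3 is low on both axes.

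The main eIF4F genes Eif4e, Eif4a1 and Eif4g1 rose, but not all their paralogs did. Eif4e encodes the cap-binding subunit (chromosome 3, 138526179 to 138559696, plus strand, mm10). It stood at 173, 168 and 199 CPM in ethanol_US, 165, 148 and 158 in CsA_US, 959, 898 and 917 in ethanol_PI, and 360, 183 and 403 in CsA_PI. The ethanol_PI libraries lay far above all others, and CsA_PI 1 and 3 lay between them and the unstimulated libraries. The log2 fold change was 2.36 ± 0.25 (SE) in vehicle, 5.13-fold, with an adjusted p of 2.24e-05. Between stimulated cells the CsA difference was -1.55 ± 0.24 (adjusted p = 0.000681), or -1.275 ± 0.142 (adjusted p = 3.67e-05) without CsA_PI 2. Without CsA_PI 2, Eif4e still rose under CsA, by 1.28 ± 0.13 (adjusted p = 2.13e-05).

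The DNA before the start site is shown for the eIF4F genes, for Eif5a, and for Eif3f as a member that did not rise. The search was for CACGTG, the E-box, the same letters on both strands and the known binding site of MYC and other bHLH factors. Each line is the 250 bases before a RefSeq start (GRCm38.p6), read on the gene's strand, with CACGTG in capitals. The windows are chr3:138527018-138527267 (plus) for Eif4e, chr11:69672424-69672673 (minus) for Eif4a1, chr16:20672477-20672726 (plus) for Eif4g1, chr11:69921387-69921636 (minus) for Eif5a, and chr7:108934165-108934414 (plus) for Eif3f.
Eif4e: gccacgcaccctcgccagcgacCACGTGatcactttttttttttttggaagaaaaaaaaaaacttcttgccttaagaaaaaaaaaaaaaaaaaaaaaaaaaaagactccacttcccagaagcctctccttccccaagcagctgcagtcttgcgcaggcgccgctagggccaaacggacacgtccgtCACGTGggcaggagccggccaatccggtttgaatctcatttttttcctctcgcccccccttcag
Eif4a1: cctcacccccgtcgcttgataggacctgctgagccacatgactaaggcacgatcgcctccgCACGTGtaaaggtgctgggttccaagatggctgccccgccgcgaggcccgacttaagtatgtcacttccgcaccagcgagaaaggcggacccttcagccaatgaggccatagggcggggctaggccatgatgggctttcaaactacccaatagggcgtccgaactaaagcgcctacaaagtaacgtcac
Eif4g1: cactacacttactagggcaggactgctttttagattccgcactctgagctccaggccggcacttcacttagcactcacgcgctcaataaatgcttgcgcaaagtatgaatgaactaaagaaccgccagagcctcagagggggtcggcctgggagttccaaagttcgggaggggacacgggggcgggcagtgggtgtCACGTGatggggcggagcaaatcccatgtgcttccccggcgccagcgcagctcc
Eif5a: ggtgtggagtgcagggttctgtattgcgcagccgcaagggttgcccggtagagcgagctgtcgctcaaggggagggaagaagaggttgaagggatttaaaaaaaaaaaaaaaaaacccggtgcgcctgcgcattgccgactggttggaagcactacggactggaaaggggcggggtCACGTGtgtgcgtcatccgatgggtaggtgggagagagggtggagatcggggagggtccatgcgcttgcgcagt
Eif3f: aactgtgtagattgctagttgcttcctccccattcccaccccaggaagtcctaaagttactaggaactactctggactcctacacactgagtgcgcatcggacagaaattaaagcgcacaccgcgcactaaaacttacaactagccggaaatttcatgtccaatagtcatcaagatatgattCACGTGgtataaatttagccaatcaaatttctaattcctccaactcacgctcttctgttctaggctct

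In the windows shown, the first base of the E-box lies 228 and 64 bases before the start in Eif4e and 189 in Eif4a1. It lies 54 bases before it in Eif4g1, 74 in Eif5a and 68 in Eif3f. Eif4g1 has another match 15 bases after this start. Eif5a has other starts, with a match 185 and 178 bases before them. Promoters of 38 members were matched in the RefSeq table, each window running from 250 bases before to 50 after a start, and a gene with several starts counted if any window held the letters. Of the 38, 10 (26.3%) held CACGTG, against 8.09% of 27025 genes in the table and 11.7% of 10025 genes tested here. Among tested members it was 7 of 27 (25.9%) of those that rose in vehicle and 3 of 10 (30%) of those not called higher. These are letter matches and not measured binding. Myc mRNA was at 55.7 to 103 CPM in ethanol_US, 3680 to 3878 in ethanol_PI, and 673, 86.8 and 749 in the CsA_PI libraries. A link between Myc and the members was not tested.

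Eif4a1, the main eIF4A helicase gene (chromosome 11, 69666936 to 69672423, minus strand), was at 787, 552 and 766 CPM in ethanol_US, 733, 615 and 721 in CsA_US, 3615, 3073 and 3403 in ethanol_PI, and 1564, 542 and 1645 in CsA_PI. Its rise was 2.26 ± 0.34 (adjusted p = 0.000297), and its level under CsA was lower by a log2 difference of -1.43 ± 0.34 (adjusted p = 0.00865), or -1.06 ± 0.18 (adjusted p = 0.001) without CsA_PI 2. Its change on stimulation with CsA was 0.86 ± 0.33 with 12 libraries and not called (adjusted p = 0.129), and a rise of 1.21 ± 0.17 with 11 (adjusted p = 0.00023). Eif4a2, which encodes a close relative of the same helicase, was at 319, 358 and 282 CPM in ethanol_US and 254, 278 and 275 in ethanol_PI. Those ranges nearly touched, and the change of -0.25 ± 0.16 was not called (adjusted p = 0.256). With library totals it was -0.85 and called (adjusted p = 0.00388). Eif4a3, the helicase of the exon junction complex, went from 215, 255 and 216 to 459, 422 and 434 CPM, by 0.94 ± 0.17 (adjusted p = 0.00114).

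A ratio of genes within a library does not depend on scaling, and is given as a description chosen after the values were seen. In TPM, Eif4a1 was 4.32, 2.39 and 4.77 times Eif4a2 in ethanol_US, 3.36, 4.12 and 4.45 times in CsA_US, 24.4, 20 and 21.9 times in ethanol_PI, and 11.3, 2.77 and 11.1 times in CsA_PI. The ratio was highest in the ethanol_PI libraries, lower in CsA_PI 1 and 3, and within the unstimulated range in CsA_PI 2.

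Of the other cap-binding paralogs, Eif4e3 fell and Eif4e2 had a small rise that depended on the setting. Eif4e2, which encodes 4EHP, a cap binder that does not bind eIF4G, went from 94.7, 98.2 and 102 CPM to 131, 128 and 124, a rise of 0.38 ± 0.13 (adjusted p = 0.0306). This call was lost in 9 alternative settings that kept the direction, and with library totals the value was -0.23 and not called (adjusted p = 0.152). In TPM its mean was 111 ± 6.96 (SD, n = 3) in ethanol_US and 112 ± 1.93 in ethanol_PI. Eif4e3, another cap-binding paralog (chromosome 6, 99625135 to 99666771, minus strand), fell from 35.6, 32 and 43.3 CPM in ethanol_US to 8.22, 8.34 and 8.01 in ethanol_PI. The log2 fold change was -2.17 ± 0.56 (adjusted p = 0.00993), a 4.5-fold fall.

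Eif4e3 also fell with CsA once CsA_PI 2 was left out. It was at 31.7, 28.7 and 42.1 CPM in CsA_US and 6.58, 28.4 and 3.92 in CsA_PI, where replicate 2 again matched the unstimulated libraries. With 12 libraries the fall under CsA was -1.39 ± 0.54 and not called (adjusted p = 0.138). With 11 it was -2.69 ± 0.27 (adjusted p = 1.61e-05), and the difference between the responses was -0.52 ± 0.34 (adjusted p = 0.393). In TPM, Eif4e was 12.4 to 13.5 times Eif4e3 in ethanol_US, 296 to 333 times in ethanol_PI, and 146, 17.2 and 293 times in the CsA_PI libraries.

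Of the scaffolds, Eif4g1 rose by 1.51 ± 0.25 (adjusted p = 0.0005), from 121, 137 and 111 to 329, 394 and 331 CPM. Its CsA_PI values were 263, 135 and 258 CPM, and the CsA difference of -0.69 ± 0.24 was not called (adjusted p = 0.0611), nor was -0.43 ± 0.18 without CsA_PI 2 (adjusted p = 0.105). Eif4g2, encoding DAP5, a scaffold without the eIF4E-binding part, rose by 1.11 ± 0.19 (adjusted p = 0.000728), from 1050, 1108 and 1034 to 2294, 2268 and 2346 CPM. In CsA_PI it was at 1048, 1083 and 1312 CPM, against 789 to 1238 CPM in the unstimulated libraries, so replicate 3 lay above them all. It was lower than with vehicle by -1.01 ± 0.19 (adjusted p = 0.00255), or -0.96 ± 0.19 with 11 libraries (adjusted p = 0.00282). Eif4g3, the remaining paralog, was at 85, 67.6 and 104 CPM in ethanol_US and 77.5, 69.2 and 80.1 in ethanol_PI, overlapping ranges with a change of -0.18 ± 0.18 (adjusted p = 0.471). With library totals that value was -0.80 and called (adjusted p = 0.00418). The eIF4A cofactor genes Eif4b and Eif4h rose by 0.83 ± 0.16 and 0.91 ± 0.16. Eif4enif1, encoding the eIF4E transporter 4E-T, had a change of 0.31 ± 0.20 that was not called (adjusted p = 0.236). In all, 8 of the 12 tested eIF4 genes rose and 1 fell, where 20.1% of all genes were called higher and 19.7% lower.

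**Figure D3:**
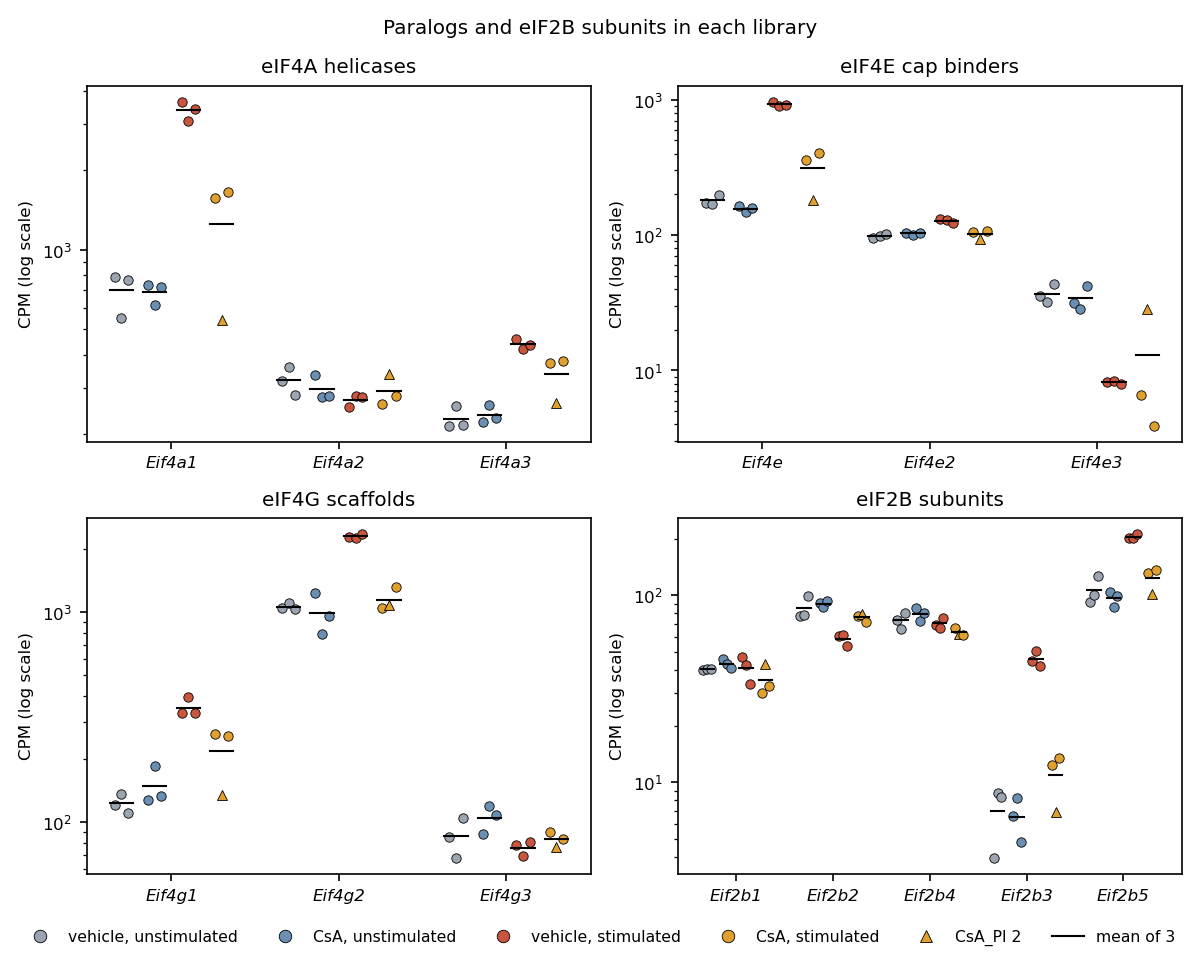
TMM-scaled CPM (log axis) of the eIF4A, eIF4E and eIF4G paralogs and of the eIF2B subunit genes; each point is a library, the bar is the mean of 3, and the triangle is CsA_PI 2. Eif4a1, Eif4e, Eif4g1, Eif4g2, Eif2b3 and Eif2b5 are highest in vehicle stimulated cells, Eif4e3 is lowest in stimulated cells, and CsA_PI 2 sits near the unstimulated points.

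Among the factors that select the start site, Eif1a had the largest rise. Eif1a and the X-linked Eif1ax both encode eIF1A, which binds the decoding site with eIF1, and their sequences are alike, so reads could be split between them. Eif1a was at 74.7, 88 and 65.1 CPM in ethanol_US, 67, 49.6 and 62.8 in CsA_US, 496, 510 and 493 in ethanol_PI, and 183, 78.4 and 197 in CsA_PI. Its log2 fold change was 2.72 ± 0.30 (adjusted p = 2.55e-05), and under CsA it rose by 1.35 ± 0.28 with 12 libraries (adjusted p = 0.0395) and 1.66 ± 0.16 with 11 (adjusted p = 1.21e-05). Eif1ax went from 54.8, 61 and 62.4 to 241, 214 and 213 CPM, by 1.91 ± 0.25 (adjusted p = 9.97e-05). It had 128, 58.1 and 129 CPM in CsA_PI, a CsA difference of -1.08 ± 0.24 (adjusted p = 0.0069), or -0.79 ± 0.13 without CsA_PI 2 (adjusted p = 0.000699).

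Eif1, the start-codon fidelity factor, went from 679, 552 and 518 to 1288, 1018 and 1090 CPM, by 0.96 ± 0.24 (adjusted p = 0.00675). Its relative Eif1b had no call with TMM scaling. It was at 22.4, 30.7 and 27.6 CPM in ethanol_US and 33, 24.8 and 29 in ethanol_PI, with a change of 0.10 ± 0.21 (adjusted p = 0.738). Its CsA_PI values were 44.1, 27.8 and 40.3 CPM, a difference from vehicle of 0.37 ± 0.21 that was not called (adjusted p = 0.244). With library totals Eif1b was called lower on stimulation in vehicle (-0.50, adjusted p = 0.0342) and higher with CsA in stimulated cells (0.68, adjusted p = 0.0146). Eif5, which makes eIF2 hydrolyse its GTP, Eif5b and Eif1ad also rose, by 1.10, 1.44 and 1.18. Placing Eif1ad in this group rests on its symbol. In all, 6 of the 7 genes placed with the start-site factors rose in vehicle, where 20.1% of all genes did. With CsA in stimulated cells 5 were lower with 12 and with 11 libraries, where 12.7% and 12.9% of all genes were.

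All 3 subunits of eIF2 that passed the filter rose, against 20.1% of all genes. Eif2s2, the beta subunit, was at 110, 110 and 121 CPM in ethanol_US, 135, 162 and 148 in CsA_US, 474, 399 and 493 in ethanol_PI, and 296, 89.7 and 263 in CsA_PI. Its rise was 2.00 ± 0.33 (adjusted p = 0.000563). Eif2s1, the alpha subunit that the stress kinases phosphorylate, rose by 1.93 ± 0.26 (adjusted p = 0.000128). Eif2s3x, the gamma subunit, which binds GTP and the tRNA, rose by 0.97 ± 0.17 (adjusted p = 0.000799), from 115, 141 and 105 to 211, 253 and 240 CPM. In CsA_PI it was at 185, 152 and 187 CPM, and the CsA difference of -0.42 ± 0.17 was not called (adjusted p = 0.0893), nor was -0.33 ± 0.16 without CsA_PI 2 (adjusted p = 0.181). Eif2a and Eif2d encode proteins that can deliver initiator tRNA without eIF2. Eif2a rose by 0.46 ± 0.16 (adjusted p = 0.0355), and Eif2d had a change of -0.22 ± 0.18 that was not called (adjusted p = 0.369). With library totals Eif2a was at -0.146 and not called (adjusted p = 0.459), and Eif2d was called lower (-0.83, adjusted p = 0.00789). In TPM the mean of Eif2a was 44.07 in ethanol_US (SD 2.002) and 42.35 in ethanol_PI (SD 5.752).

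Of the 5 genes of eIF2B, 2 rose and 1 fell, where 20.1% of all genes were called higher and 19.7% lower. The catalytic gamma and epsilon subunits are encoded by Eif2b3 and Eif2b5, and the regulatory alpha, beta and delta subunits, which sense phosphorylated eIF2, by Eif2b1, Eif2b2 and Eif2b4. Eif2b3 was at 3.95, 8.79 and 8.38 CPM in ethanol_US, 6.64, 8.26 and 4.8 in CsA_US, 44.6, 50.6 and 41.9 in ethanol_PI, and 12.5, 6.96 and 13.5 in CsA_PI. It rose by 2.70 ± 0.35, 6.48-fold (adjusted p = 9.16e-05), and the CsA difference was -2.06 ± 0.34 (adjusted p = 0.000977), or -1.81 ± 0.33 with 11 libraries (adjusted p = 0.00148). Eif2b5 rose by 0.95 ± 0.17 (adjusted p = 0.000927), from 91.5, 101 and 126 to 202, 203 and 211 CPM, a call lost with library totals (0.34, adjusted p = 0.085).

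No regulatory subunit gene was called higher. Eif2b2 fell by 0.54 on the log2 scale (SE 0.15, adjusted p = 0.0116), from 77.3, 78.4 and 99.3 to 60.8, 61.2 and 53.7 CPM, a call lost without ethanol_PI 3 (adjusted p = 0.0547). Its CsA_PI values were 77.1, 79.8 and 72.2 CPM. Eif2b1 and Eif2b4 had changes of 0.03 ± 0.18 and -0.05 ± 0.14 (adjusted p = 0.929 and 0.801), and with library totals -0.59 and -0.67, both called lower. In TPM, Eif2b3 was 0.038 to 0.0768 times Eif2b2 in ethanol_US, 0.488 to 0.541 times in ethanol_PI, and 0.0982, 0.0579 and 0.144 times in CsA_PI. Eif2b3 therefore stayed the rarer mRNA of the pair in every library. Differences in response between subunits were not tested.

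Of the 14 genes of eIF3, the scaffold that binds the small subunit and eIF4G, 13 rose, where 20.1% of all genes did. With CsA in stimulated cells 9 were lower, where 12.7% of all genes were. Without CsA_PI 2, 8 were lower, where 12.9% of all genes were, and Eif3d was not called (-0.49, adjusted p = 0.063). The rises were graded. Within the octamer of subunits a, c, e, f, h, k, l and m, the log2 fold changes were 1.61 for Eif3a, 1.59 for Eif3c, 1.16 for Eif3l, 0.93 for Eif3m, 0.88 for Eif3e, 0.61 for Eif3h, 0.47 for Eif3k and 0.14 for Eif3f, with SE of 0.17 to 0.20. The peripheral subunits, b, d, g, i and j, had values from 1.07 for Eif3i to 3.10 for Eif3b. Eif3f, the one eIF3 gene without a call (adjusted p = 0.57), was at 281, 300 and 225 CPM in ethanol_US and 313, 301 and 275 in ethanol_PI, overlapping ranges. With library totals Eif3f was called lower (-0.47, adjusted p = 0.0425), Eif3k changed sign (-0.14, adjusted p = 0.43) and Eif3h was at 0.005. With the replicate number as a block, the call of Eif3k was lost (adjusted p = 0.0537). The split into octamer and periphery was made after the values were seen.

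Eif3b had the largest rise of all members, with the largest SE. Its levels were 61.7, 58 and 208 CPM in ethanol_US, 115, 177 and 256 in CsA_US, 1105, 453 and 1252 in ethanol_PI, and 187, 61.6 and 152 in CsA_PI. Replicates of a group differed up to several-fold, yet every ethanol_PI library was above every other library. The log2 fold change was 3.10 ± 0.64 (adjusted p = 0.00303). The CsA difference was -2.81 ± 0.63 (adjusted p = 0.00866), or -2.46 ± 0.72 (adjusted p = 0.0422) without CsA_PI 2. The difference between the responses was -3.55 ± 0.86 (adjusted p = 0.0268), or -3.20 ± 0.92 (adjusted p = 0.0589) without CsA_PI 2.

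Eif3j1 and Eif3j2 encode near-identical forms of the loosely bound j subunit, so the assignment of reads between them is uncertain. Eif3j2 went from 50.8, 72 and 49.4 to 290, 268 and 276 CPM, by 2.28 ± 0.26 (adjusted p = 3.25e-05). Eif3j1 went from 15.7, 16.5 and 15.2 to 66.5, 53.6 and 50.5 CPM, by 1.84 ± 0.22 (adjusted p = 5.34e-05). In CsA_PI they were at 118, 58.2 and 119 and at 24.4, 14.2 and 21.4 CPM. Both were lower with CsA, by -1.50 ± 0.25 (adjusted p = 0.001) for Eif3j2 and -1.51 ± 0.22 (adjusted p = 0.000402) for Eif3j1. Without CsA_PI 2 these differences were -1.23 ± 0.17 and -1.31 ± 0.19 (adjusted p = 0.000216 and 0.000305).

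**Figure D4:**
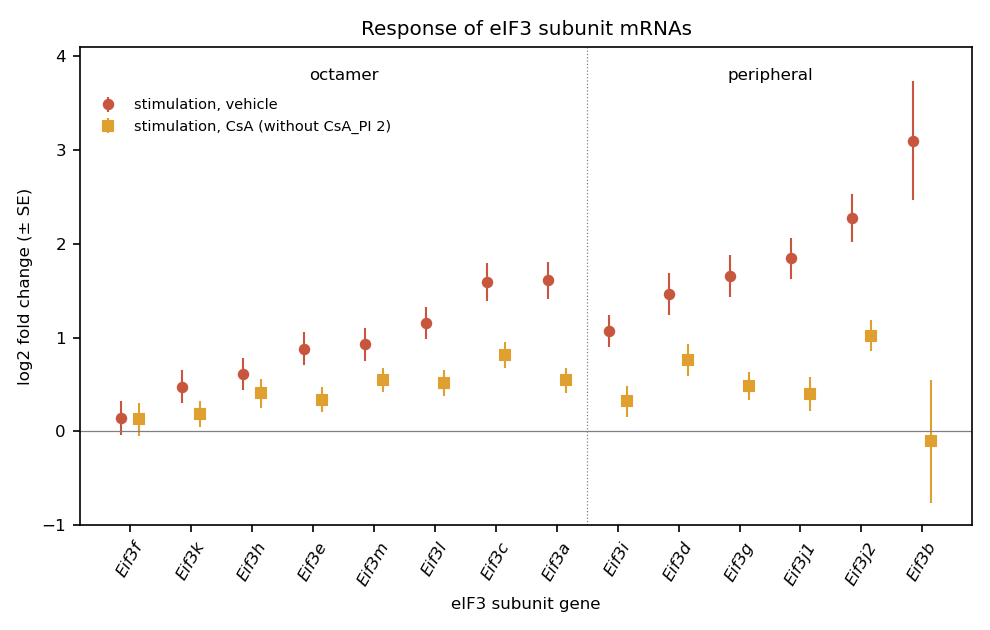
Log2 fold change (± SE) on stimulation for the 14 eIF3 subunit genes, in vehicle from 12 libraries (circles) and with CsA from 11 libraries (squares), octamer subunits left and peripheral subunits right. Values in vehicle run from 0.14 for Eif3f to 3.10 for Eif3b. With CsA all except Eif3b lie above 0, and 7 of the 14 were called higher, against 14.9% of all genes.

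Eif5a encodes eIF5A, which carries hypusine, a modified lysine, and helps ribosomes through difficult peptide bonds; it lies on chromosome 11, 69916714 to 69921958, minus strand. It was at 794, 672 and 960 CPM in ethanol_US, 825, 833 and 939 in CsA_US, 4711, 3816 and 4349 in ethanol_PI, and 1625, 684 and 1579 in CsA_PI. The rise was 2.41 ± 0.30, 5.31-fold (adjusted p = 6.84e-05), the CsA difference -1.73 ± 0.29 (adjusted p = 0.00111, with -1.42 ± 0.18 and an adjusted p of 0.000113 without CsA_PI 2), and the difference between responses -1.83 ± 0.41 (adjusted p = 0.0142). Eif5a2, its paralog, was at 6.77, 8.32 and 6.93 CPM and then 5.24, 6.69 and 6.9, with no call (-0.22 ± 0.34, adjusted p = 0.645). Dhps and Dohh, the enzymes that make hypusine, rose with Eif5a, by 1.16 ± 0.20 and 1.32 ± 0.17 (adjusted p = 0.000758 and 0.000112). Eif6, which keeps the large subunit from joining early, rose by 1.53 ± 0.22 (adjusted p = 0.00019). In CsA_PI it was at 273, 164 and 273 CPM, against 185, 177 and 257 in ethanol_US. The CsA difference in stimulated cells was -1.33 ± 0.22 (adjusted p = 0.000917), or -1.12 ± 0.17 without CsA_PI 2 (adjusted p = 0.000443). Its change on stimulation with CsA was not called with 12 libraries (0.08, adjusted p = 0.858) or with 11 (0.28, adjusted p = 0.237).

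Stimulation changed the order of the mRNA levels, compared here in TPM, which is per length. In ethanol_US, Eif1 led with 1581 ± 173 TPM (SD, n = 3), followed by Eif5a with 1359 ± 271 and Eif4a1 with 1141 ± 285. Neighbours among these 3 differed by less than their spread. In ethanol_PI, Eif5a led with 4786 ± 332, ahead of Eif4a1 with 4084 ± 119 and Eif1 with 2198 ± 128. Eif4e moved from place 11 (310 ± 38.9 TPM) to place 4 (1130 ± 27.6), and Eif3f from place 9 (357 ± 55.4) to place 16 (279 ± 20).

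That order depends on which transcripts are counted, since part of the TPM came from transcripts that are not annotated as protein coding. They held over 50% of the gene's TPM on average over the 12 libraries in 8 members: Eif2a (82.1%), Eif5b (75.1%), Eif4a1 (64.2%), Eif1 (62.8%), Eif3f (58.1%), Eif1ax (56.4%), Eif4a2 (54.7%) and Eif6 (51%). In TPM of coding transcripts alone, Eif5a led in both groups, with 1359 ± 271 (SD, n = 3) in ethanol_US and 4786 ± 332 in ethanol_PI. Eif1 had 648 ± 120 and 808 ± 51.5, and Eif4a1 445 ± 99.2 and 1226 ± 45.6. By coding TPM Eif4e moved from place 9 to place 3 and Eif3f from place 19 to place 26. For Eif5b the non-coding part was mainly a transcript with a retained intron, which held 68.9% in ethanol_US and 79.6% in ethanol_PI. Its coding TPM was 6.38 ± 0.69 and 8.02 ± 0.96, against 22.5 ± 6.49 and 41.9 ± 5.45 for the whole gene. In Eif4e, coding transcripts of 729 and 526 bases held 51.3% and 32%, with similar shares in all groups. Eif2s2 had a second coding transcript, Eif2s2-205, at 0%, 8.3% and 7.5% of its TPM in ethanol_US and 26.3%, 23.4% and 28.3% in ethanol_PI. It held 13.3%, 8.6% and 0% in CsA_US and 13.7%, 16.6% and 11% in CsA_PI. These shares are estimates for overlapping transcripts and were not tested.

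Genes that act on the initiation factors did not rise as a block. Over all genes, 20.1% were called higher and 19.7% lower on stimulation in vehicle. Of 6 tested kinases and 4E-binding proteins, 0 rose and 3 fell in vehicle by edgeR. They were Eif2ak3, encoding PERK, an eIF2 kinase (-1.32 ± 0.33, adjusted p = 0.00649), Eif2ak2, encoding PKR (-0.84 ± 0.27, adjusted p = 0.0268), and Eif4ebp2, which holds eIF4E inactive (-1.50 ± 0.40, adjusted p = 0.0101). Under CsA, Eif2ak3 went the other way: it rose on stimulation by 1.27 ± 0.32 (adjusted p = 0.0463), or 1.61 ± 0.17 without CsA_PI 2 (adjusted p = 2.64e-05). The difference between its responses was 2.59 ± 0.46 (adjusted p = 0.00447).

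Of 19 other regulators of initiation, 11 rose and 4 fell in vehicle, against the same 20.1% and 19.7% of all genes. The falls were Pdcd4, an inhibitor of eIF4A (-3.23 ± 0.64, adjusted p = 0.00261), Mknk2 and Mknk1, the eIF4E kinases (-1.74 ± 0.26 and -1.22 ± 0.29, adjusted p = 0.000236 and 0.0053), and Paip2, an inhibitor of poly(A)-binding protein (-1.21 ± 0.21, adjusted p = 0.00084). Without CsA_PI 2, Pdcd4 also fell under CsA (-3.23 ± 0.42, adjusted p = 0.000286), and the difference between its responses was 0.01 ± 0.51 (adjusted p = 0.996). The rises included Abce1, the ribosome recycling factor (1.94 ± 0.25, adjusted p = 9.5e-05), and Ppp1r15a, encoding GADD34, which directs dephosphorylation of eIF2 (1.93 ± 0.24, adjusted p = 7.02e-05). Under CsA in stimulated cells 8 of the 19 were lower and 2 higher, where 12.7% and 10.3% of all genes were. Without CsA_PI 2, 8 were lower and 1 higher, where 12.9% and 9.66% of all genes were.

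The mTORC1 genes showed little common direction: 3 of 10 rose (Rheb, Rps6kb1 and Mtor) and 1 fell (Tsc1) in vehicle. Over all genes, 20.1% were called higher and 19.7% lower. Without CsA_PI 2, 3 rose and 3 fell, where 22.2% and 21.9% of all genes did. With CsA in stimulated cells 2 were higher and 2 lower with 12 libraries, where 10.3% and 12.7% of all genes were. Of 9 tested elongation and termination factors, 6 rose and 0 fell in vehicle, against 20.1% and 19.7% of all genes. Eef1e1, a part of the tRNA synthetase complex, rose by 3.15 ± 0.40 (adjusted p = 0.000101) and Etf1, the release factor eRF1, by 2.44 ± 0.28 (adjusted p = 3.46e-05). Eef2, the translocation factor, did not pass (0.21 ± 0.21, adjusted p = 0.464). Of these 9, 4 were lower with CsA in stimulated cells, and 4 without CsA_PI 2, where 12.7% and 12.9% of all genes were.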

How the data were processed

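The submitters' processing notes name cutadapt and kallisto and the build mm10 for the reads of the 12 libraries; versions are not given in the sources used here. The deposited tables hold, per the file headers, the estimated count and the TPM of each transcript and its length in bases. Of 109617 transcripts, 108214 were matched by identifier to GENCODE vM21, 92.5% with the same length; the 1403 others carried 0.494% to 0.628% of a library's counts and were left out. Estimated counts and TPM were summed per gene, and counts rounded.

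All 4 groups of 3 entered 1 fit of edgeR 4.0.16 (R 4.3.3): TMM scaling, expression filter by group (minimum count 10, total 15), robust quasi-likelihood tests and Benjamini-Hochberg adjustment. SE is the absolute log2 fold change over the root of F. The code was tested on simulated data. Alternatives were RLE scaling, library totals, no filter, DESeq2 1.42.0, the replicate block, only the groups compared, length-scaled TPM counts and each library left out. Members, lists and tests were chosen with earlier results of these data known.

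Genes given in full were the 8 largest called rises and falls in vehicle (2 fell), the 4 largest called interactions and fixed paralog sets. Other members were chosen for naming after their values were seen. Equally numbered libraries deviated together between the vehicle groups (correlations across genes 0.143, 0.319 and 0.197), the unstimulated groups (0.196, 0.325 and 0.299) and the stimulated groups (0.165, 0.208 and 0.107), but the labels do not say what a number shares. Between the CsA groups the correlations were 0.033, 0.11 and 0.123. Unequally numbered libraries were not compared, so these values do not establish a pairing. Promoter sequence is from RefSeq, GRCm38.p6. Another B cell marker of the list is not reported here.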

Additional observations from a re-analysis of the deposited data

Results flagged for a closer look

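For 15 members the response to stimulation differed between CsA and vehicle by the test of the difference itself (edgeR, adjusted p under 0.05). Each value is the log2 response under CsA minus that in vehicle, from all 12 libraries. In eIF3 these were Eif3b with -3.551, Eif3j1 with -1.639, Eif3j2 with -1.521, Eif3g with -1.393, Eif3a with -1.261 and Eif3c with -0.974. Of the genes placed with the start-site factors, Eif5b (by TPM mostly a transcript with a retained intron) had -1.55, Eif1a -1.365 and Eif1ad -0.992. In eIF2 and eIF2B, Eif2b3 had -1.962 and Eif2s1 -1.289. In eIF4, Eif4e had -1.354 and Eif4b -0.752. Eif5a had -1.827 and Eif6 -1.452. Without CsA_PI 2, 14 of the 15 remained called, and Eif3b did not (-3.20, adjusted p = 0.0589). With library totals Eif1a, Eif2s1, Eif3c and Eif4b were not called. Of the genes followed through all 18 alternative settings, the call was lost in 11 for Eif1a, 8 for Eif3b, 7 for Eif4e, 3 for Eif2b3 and 1 each for Eif3j1 and Eif3j2, and in 0 for Eif5a.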

How the results depend on the processing

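With library totals in place of TMM, stimulation in vehicle gave 22 members higher and 9 lower (35 and 2 with TMM), where 11% and 37.8% of all genes were. CsA in stimulated cells gave 3 higher (0), with 19.9% of all genes, and stimulation with CsA 0 higher (3), with 0.0347%. By construction this scaling keeps the shift of the median of all genes. On stimulation in vehicle Eif1b was then at -0.504 and called lower, and Eif4e2 at -0.231 and not called. DESeq2 called 1 member higher for CsA in stimulated cells, 7 higher and 1 lower for stimulation with CsA, and 24 lower for the interaction. With only the groups compared in the fit, 0 were higher on stimulation with CsA. The cause of these differences was not tested.

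With the replicate block, 34 members were higher and 2 lower on stimulation in vehicle, 25 lower for CsA in stimulated cells, 2 higher on stimulation with CsA and 19 lower for the interaction. The block ended the calls of Eif3k on stimulation in vehicle (adjusted p = 0.0537) and of Eif2s3x on stimulation with CsA (adjusted p = 0.0513). It added Eif4h for CsA in stimulated cells (adjusted p = 0.0416). In the interaction it added Eif1ax, Eif2s2, Eif4a1 and Eif5, and it changed no other call there.

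Leaving out each library in turn gave 31 to 35 higher and 1 to 2 lower for stimulation in vehicle, and 0 to 1 higher and 20 to 27 lower for CsA in stimulated cells. It gave 0 to 21 higher and 0 to 1 lower for stimulation with CsA, where 21 and 1 came without CsA_PI 2, and 6 to 19 lower for the interaction. The interaction count was 6 without ethanol_US 1, 7 without ethanol_PI 1, 9 without ethanol_PI 2, 8 without ethanol_PI 3 and 8 without CsA_US 3. RLE scaling, no filter and length-scaled TPM counts moved no count by more than 1.5 times. Eif2s3y and Eif4e1b lay near the 3-count floor, and the reason was not tested. Eif2s3x, the other gene of the eIF2 gamma subunit, had 1272 to 2611 counts in a library. PCR copies in SMART-seq libraries are not independent molecules.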
